A study of Mus musculus with 16 samples.

Results

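The glutathione, NRF2 and antioxidant genes comprise 44 mouse genes, chosen by gene symbol, with no measured value in the rule. These genes, and the gene lists used below, were chosen with earlier results of these data known. All 44 were found among the 55414 genes of the count table. Of these, 42 had enough counts to be tested, while Gstm3 and Mgst2 had between 0 and 11 counts in every library and did not pass the filter on low counts.

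RNA was sequenced from the kidney cortex of wild type male C57BL/6J mice, in 4 groups of 4 libraries. The sedentary mice did not run. The exercised mice ran on a treadmill under compulsion, for 40 min at 70% of their capacity, over 24 h (also given as 1 day), 1 wk or 2 wk. The age of the mice, the number of runs and the time between the last run and death are not stated, and the labels do not say that each library came from its own animal, so that p-values measure the spread between libraries, which may in part be technical.

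Libraries held between 39766260 and 66852397 counts, and 16126 genes were tested. Markers of proximal tubule, thick ascending limb, collecting duct, podocytes and endothelium were all detected in all 16 libraries. At an unadjusted p under 0.05, 8 of 10 heat shock genes, 5 of 8 injury genes and 3 of 5 fibroblast markers were higher at 24 h, 5 of 5 endothelial markers lower at 1 wk and 5 of 6 red cell markers higher at 2 wk, none of them at an adjusted p under 0.05 by edgeR. The part of these shifts in the differences of the members was not tested. Some libraries stood apart from the rest of their group. Replicate 3 of the 24 h group had a summed level of 10 heat shock genes of 5163 CPM (counts scaled by library size), against 2293 to 2609 CPM in sedentary libraries, and the highest macrophage and fibroblast marker sums of its group. Without it the counts at 24 h were 5 of 10 heat shock genes, 4 of 8 injury genes and 2 of 5 fibroblast markers. Red cell markers summed to 1261 CPM in 1 wk replicate 3 and to 1670 CPM in 2 wk replicate 4, against 374 to 632 CPM in sedentary libraries. Among abundant genes, those with short transcripts were high in 1 wk replicate 3 and low in 1 wk replicate 4 and 2 wk replicate 2. Values without one of these libraries are given where leaving it out changed a call or moved a value. A letter in the sample titles, which no label explains, also separates exercised from sedentary libraries, so that what it marks cannot be told apart from running.

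NRF2, encoded by Nfe2l2, is a transcription factor that is held in the cytoplasm and marked for degradation by its sensor KEAP1. Oxidants and electrophiles modify KEAP1, NRF2 then accumulates, and it binds antioxidant response elements in the promoters of genes for glutathione synthesis, detoxification and the thioredoxin system. Glutathione, a tripeptide thiol, is made by glutamate-cysteine ligase and glutathione synthetase, used by peroxidases to reduce peroxides and by transferases to conjugate electrophiles, and taken apart outside the cell by γ-glutamyl transferase on the brush border of the proximal tubule. Thioredoxin and the peroxiredoxins form a parallel route to remove peroxides, superoxide dismutases turn superoxide into hydrogen peroxide, and catalase breaks hydrogen peroxide down.

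Among the 44 genes, 4 have a coding sequence with an in-frame TGA before its stop codon, annotated as selenocysteine, the selenium-bearing residue at the active site of these enzymes. They are 3 glutathione peroxidases, among them the most abundant member in the tissue, and thioredoxin reductase 1. Their coding sequences around that codon are shown because these genes share a dependence on selenium with Selenop, a gene of the wider pathway described further on. The capitals mark the TGA, which is codon 47 in Gpx1, 73 in Gpx3, 129 in Gpx4 and 612 of 613 in Txnrd1 in the GENCODE M21 transcript used (GRCm38).
Gpx1: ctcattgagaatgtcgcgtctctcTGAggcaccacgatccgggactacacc
Gpx3: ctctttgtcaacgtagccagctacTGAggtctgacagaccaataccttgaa
Gpx4: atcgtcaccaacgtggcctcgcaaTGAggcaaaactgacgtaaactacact
Txnrd1: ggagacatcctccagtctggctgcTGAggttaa

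The antioxidant response element was searched for by its core letters TGACNNNGC on both strands of the promoter windows of RefSeq (GRCm38.p6), from 250 bases before to 50 bases after a start site. The table held a window for 37 of the 44 genes and none for Gclc, Hmox1, Gsr, Gsta4, Gstt2, Prdx6 and Sod3. The core was present for 10 of the 37 (27.0%), against 3781 of all 27025 genes with a window (14%), a description of letters with no test of binding. The 10 were Nfe2l2, Txnrd1, Srxn1, Gclm, Ggt1, Gsta3, Gstm5, Mgst1, Prdx1 and Sod1. The matches for 5 of the 10, genes of the NRF2 system that are described further on, are shown, with the core in capitals (or its reverse complement, GCNNNGTCA) on the strand of the gene.
Nfe2l2 (chr2:75704885-75704913, minus strand, 240 bases before the start): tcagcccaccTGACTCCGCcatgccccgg
Txnrd1 (chr10:82859104-82859132, plus strand, 92 bases before the start): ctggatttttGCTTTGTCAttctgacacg
Srxn1 (chr2:152105542-152105570, plus strand, from 28 bases after the start): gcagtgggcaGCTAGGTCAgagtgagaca
Gclm (chr3:122245413-122245441, plus strand, 134 bases before the start): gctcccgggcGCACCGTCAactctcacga
Prdx1 (chr4:116685456-116685484, plus strand, 133 bases before the start): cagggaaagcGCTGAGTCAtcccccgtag

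Sedentary kidney cortex held these genes at very unequal levels, and the order was set by the glutathione peroxidases. Together the 44 genes took 5.09% ± 0.19 (SD, n = 4) of all counts in sedentary libraries. Gpx3, the peroxidase that the proximal tubule secretes into plasma, alone took 3.07% ± 0.21 and ranked 1 or 2 among all genes in each of the 16 libraries. Per length of exon, Gpx3 stood at 16953 ± 1284 CPM per kb (SD, n = 4) and the cytosolic Gpx1 at 2481 ± 75.8 CPM per kb. They were followed by Prdx5 at 1172 ± 34.5 CPM per kb, a peroxiredoxin of mitochondria, peroxisomes and cytosol, and Gpx4 at 680.2 ± 62.5 CPM per kb, which reduces lipid peroxides in membranes. The order of neighbours lower down was within their spread in places, as for Ggt1 (611 ± 51.8 CPM per kb) against Gpx4 and for Gstm1 (417 ± 19.5) against Cat (430 ± 34.7).

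The transcripts of the regulators were scarce beside those of the abundant enzymes, though Nfe2l2 lay close to Txnrd1 and both regulators lay above Gstm6. Nfe2l2 stood at 21.6 ± 0.86 CPM per kb and Keap1 at 12.5 ± 0.74 CPM per kb in sedentary libraries. The inducible target enzymes lay between 22.1 CPM per kb for Txnrd1 and 66.7 CPM per kb for Nqo1, and the genes for glutathione synthesis and recycling between 61.5 CPM per kb for Gclm and 611 CPM per kb for Ggt1. Tested cytosolic transferases lay between 0.88 CPM per kb for Gstm6 and 417 CPM per kb for Gstm1.

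**Figure D1:**
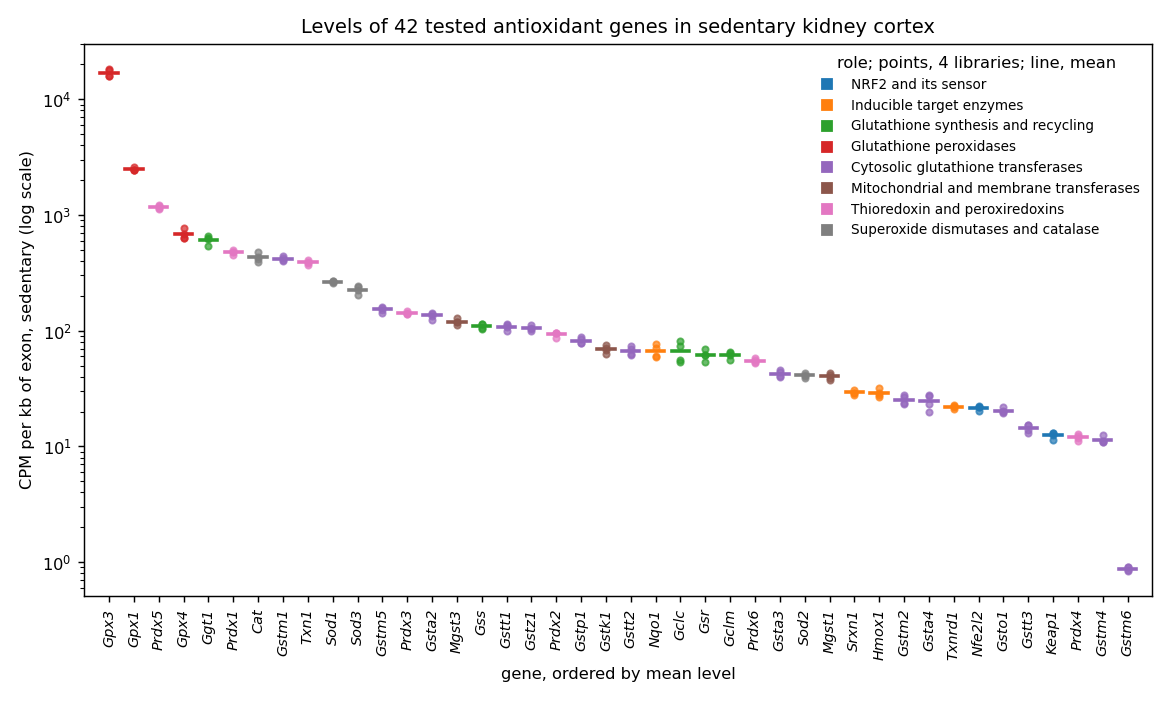
Level of the 42 tested genes in the 4 sedentary libraries, in TMM-scaled CPM per kb of exon on a log axis, with a point per library, a line at the mean and colours for the roles. Gpx3 at 16953 CPM per kb stands apart at the left and Gstm6 at 0.88 CPM per kb at the right, while most other genes lie between 10 and 1000 CPM per kb.

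Reads of near-identical genes may be assigned in different ways by a counting program, and how this was done is not stated. The share of a gene's 50-base words that also occur in another gene was 49.8% for Gsta2 (mostly with Gsta1), 34.7% for Gpx4 (with the pseudogene Gpx4-ps2), 33.7% for Gstp1 (with Gstp2), 21% for Sod2, 18.9% for Gstm1 and 12.5% for Gstt3, so that values of these genes are uncertain. It was 0 for Gclc, Hmox1, Txnrd1, Nqo1, Gpx1, Gpx3 and Cat. Exons of Prdx5 overlap those of Trmt112 on the opposite strand over 19.1% of their length. Those of Gstm5 overlap an antisense transcript over 13.9% and those of Keap1 over 10.9%. The transcript at Keap1 had a mean of 5.8 counts, beside 2848 for Keap1. Those of Gss overlap exons of Acss2 on the opposite strand over 6.7%, with means of 19222 counts for Acss2 and 30703.5 for Gss. It is not known here whether strand was used in counting.

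The first question was which of these genes differ in kidneys of mice that ran, at each duration. In the comparison of 24 h with sedentary libraries, the catalytic subunit gene of glutamate-cysteine ligase, Gclc, had the largest difference of the 42 genes, 1.85-fold on average. Heme oxygenase 1 (Hmox1), thioredoxin reductase 1 (Txnrd1) and the omega class transferase Gsto1 had higher averages and catalase (Cat) a lower average, each at an unadjusted p under 0.05. No member passed an adjusted p of 0.05 by edgeR's quasi-likelihood test, in which no gene of the 16126 passed. Gclc was the single member that passed by DESeq2, which called 0.533% of all genes (86), and by voom, which called 0.366% (59). The 5 genes at an unadjusted p under 0.05 are 11.9% of the 42, beside 8.92% of all genes tested. Of them 4 were higher (all genes 4.49%) and 1 lower (all genes 4.43%). Without 24 h replicate 3 the count was 2, Gclc and Hmox1 (4.76% of 42, all genes 5.41%). Groups did not overlap for 3 members, Gclc, Hmox1 and Txnrd1, which is 7.14% of the 42 beside 7.21% of all genes. The median log2 fold change of the members was 0.004 and that of all genes tested -0.005, with 22 of 42 above 0 (52.4%, beside 49% of all genes).

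At 1 wk, Gclc was the single member at an unadjusted p under 0.05 (2.38% of 42, beside 6.05% of all genes), and no member was separate between the groups (all genes 4.22%). The count of members at an adjusted p under 0.05 was 0 by edgeR, by DESeq2 (all genes 0.093%) and by voom (all genes 0.0372%). The members nevertheless leaned to one side, with 34 of 42 above 0 (81%, beside 51.1% of all genes) and a median log2 fold change of 0.07, smaller than their median standard error of 0.11. The size of this lean depended on single libraries: the median was 0.02 without 1 wk replicate 3 and 0.14 without 1 wk replicate 4. These were the lowest and highest values with any library left out. By library, the members' median difference from the sedentary mean was 0.10, 0.11 and 0.19 in replicates 1 to 3 and -0.175 in replicate 4. All genes are not matched to the members in level, and 30 members were at 100 CPM or more. Among all genes at that level, replicates 1 to 4 were at 0.11, 0.175, 0.305 and -0.24 for exons under 2 kb. They were at 0.07, 0.04, 0.09 and -0.08 for 2 to 4 kb and 0.06, -0.06, -0.09 and 0.12 over 4 kb. The part of level and length in the lean was not tested.

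At 2 wk, Gclc, Txnrd1 and the extracellular superoxide dismutase gene Sod3 had higher averages at an unadjusted p under 0.05, which is 7.14% of the 42 beside 7.26% of all genes. The groups were separate for Txnrd1, which was higher, and for Prdx1, which was lower (4.76% of 42, beside 4.91% of all genes). The count at an adjusted p under 0.05 was 0 by edgeR, by DESeq2 (all genes 0.211%) and by voom (all genes 0.0434%). Above 0 were 27 of 42 members (64.3%, beside 52.1% of all genes), with a median of 0.04 that was -0.006 without 2 wk replicate 1 and 0.07 without 2 wk replicate 2. With all 12 exercised libraries set against the 4 sedentary ones, Gclc and Txnrd1 were at an unadjusted p under 0.05 (4.76% of 42, beside 7.97% of all genes). Txnrd1 was no longer so without sedentary replicate 1 (log2 fold change 0.14). The count of members past an adjusted p of 0.05 in that comparison was 0 by edgeR, and 1 by DESeq2 (all genes 0.161%) and by voom (all genes 0.322%), in both cases Gclc. These comparisons share the sedentary libraries, so that their values are set side by side and not counted as separate support.

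**Figure D2:**
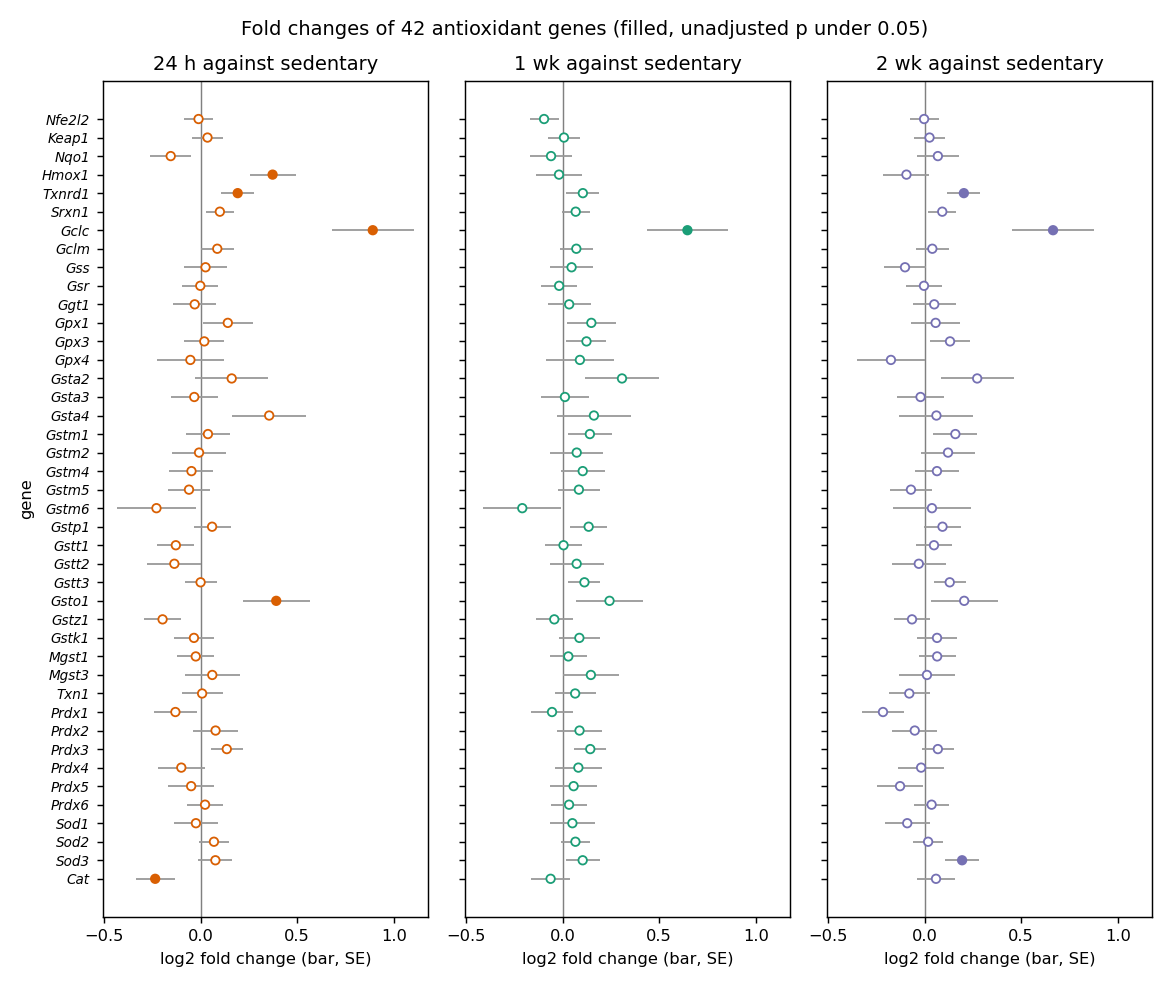
Log2 fold changes against sedentary libraries for the 42 tested genes at 24 h, 1 wk and 2 wk, with bars of 1 standard error and filled points where the unadjusted p of edgeR was under 0.05. Gclc lies far to the right in each panel (0.89, 0.65 and 0.66), most other genes lie near 0, and 5, 1 and 3 points are filled.

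Neither the transcription factor nor its sensor had a difference at the RNA level beyond its spread. Nfe2l2 (chr2:75675513-75704641, minus strand) was at 84.7, 83.2, 77.2 and 82.7 CPM in sedentary libraries, 83.9, 71.9, 88.5 and 81.1 CPM at 24 h, 77.8, 74.9, 74.1 and 80.1 CPM at 1 wk and 78.7, 83.4, 86.2 and 79.0 CPM at 2 wk. The groups overlapped throughout, with log2 fold changes of -0.01 ± 0.08 (SE), -0.10 ± 0.08 and -0.003 ± 0.08. Keap1 (chr9:21229730-21239361, minus strand) was at 58.5, 60.8, 53.8 and 61.5 CPM in sedentary libraries, 56.7, 61.5, 58.6 and 63.7 CPM at 24 h, 64.8, 53.0, 59.0 and 59.0 CPM at 1 wk and 63.5, 62.5, 54.5 and 58.2 CPM at 2 wk. Its groups overlapped as well, with log2 fold changes between 0.01 and 0.04.

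Of the 4 inducible target enzymes, Hmox1 was at an unadjusted p under 0.05 at 24 h, Txnrd1 at 24 h and 2 wk, and Nqo1 and Srxn1 at no duration. Hmox1 (chr8:75093621-75100589, plus strand), which breaks down heme, was at 50.6, 55.8, 46.7 and 48.8 CPM in sedentary libraries and 56.9, 60.4, 81.7 and 62.4 CPM at 24 h. It was at 42.5, 46.7, 58.9 and 51.1 CPM at 1 wk and at 50.2, 50.9, 47.7 and 40.2 CPM at 2 wk. All 4 libraries at 24 h were above the highest sedentary library, and replicate 3 stood well above the others of the group. The log2 fold change at 24 h was 0.37 ± 0.12 (adjusted p = 0.331 by edgeR, 0.172 to 0.896 over 22 alternatives) and 0.25 without replicate 3, with the unadjusted p still under 0.05. That library also had the high heat shock and macrophage sums given above, and macrophages express Hmox1. Their part in the difference was not tested.

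Txnrd1 (chr10:82833951-82897712, plus strand), which keeps thioredoxin reduced, had a small difference in averages. Its levels were 149, 159.6, 157 and 161 CPM in sedentary libraries, 177, 184, 178 and 176 CPM at 24 h, 150.2, 159.6, 163 and 201 CPM at 1 wk and 186, 188, 179 and 167 CPM at 2 wk. Every library at 24 h and 2 wk lay above the highest sedentary library, while at 1 wk replicate 4 was high and the others lay among or near the sedentary ones. The log2 fold change was 0.19 ± 0.08 at 24 h (adjusted p = 0.522 by edgeR), 0.10 ± 0.08 at 1 wk and 0.20 ± 0.08 at 2 wk (adjusted p = 0.623). Adjusted values over the alternatives were 0.175 to 0.916 at 24 h and 0.353 to 1 at 2 wk. The unadjusted p was no longer under 0.05 at 24 h without sedentary replicate 1 (0.17) or 3 (0.20) or without 24 h replicate 1 (0.20), 2 (0.18) or 3 (0.19), the log2 fold change being given for each. At 2 wk the same held without sedentary replicate 1 (0.18) and without 2 wk replicate 1 (0.19) or 2 (0.18).

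Nqo1 (chr8:107388225-107403206, minus strand), a quinone reductase often used as a readout of NRF2, was at 93.9, 91.4, 109 and 119 CPM in sedentary libraries, 84.5, 103, 83.5 and 101 CPM at 24 h, 107, 107, 99.6 and 83.3 CPM at 1 wk and 102, 103, 119 and 110.1 CPM at 2 wk. No exercised library was above the highest sedentary one, and the log2 fold changes were -0.15 ± 0.11, -0.06 ± 0.11 and 0.07 ± 0.11. Srxn1 (chr2:152105516-152111376, plus strand), which repairs overoxidised peroxiredoxins, was at 87.3, 82.3, 81.9 and 79.1 CPM in sedentary libraries, 80.6, 86.9, 93.5 and 93.3 CPM at 24 h, 83.7, 91.8, 88.0 and 83.1 CPM at 1 wk and 91.5, 86.0, 88.3 and 86.4 CPM at 2 wk. It was among the steadiest of the 42 genes, with a coefficient of variation of 5.21% over the 16 libraries, and its log2 fold changes lay between 0.07 and 0.10 with overlapping groups.

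In glutathione synthesis and recycling, Gclc was at an unadjusted p under 0.05 at each duration and the 4 other genes of the role at none. Gclc (chr9:77754535-77794485, plus strand) encodes the catalytic subunit of glutamate-cysteine ligase, the rate-limiting enzyme of glutathione synthesis. Its levels were 204, 211, 305 and 279.6 CPM in sedentary libraries and 483, 451, 419.7 and 501 CPM at 24 h. They were 273, 448, 399 and 445 CPM at 1 wk and 399, 390.1, 571 and 224 CPM at 2 wk. All 4 libraries at 24 h were above every sedentary one, and 10 of the 12 exercised libraries were, the exceptions being 1 wk replicate 1 and 2 wk replicate 4. Gclc also varied most of the 42 genes over the 16 libraries, with a coefficient of variation of 29.9%, and the sedentary libraries themselves fell into a lower and a higher pair.

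The log2 fold change of Gclc was 0.89 ± 0.21 at 24 h (adjusted p = 0.179 by edgeR), 0.65 ± 0.21 at 1 wk (adjusted p = 0.603) and 0.66 ± 0.21 at 2 wk (adjusted p = 0.422). Over all exercised libraries it was 0.73 ± 0.18 (adjusted p = 0.329). At 24 h the adjusted p differed between tools and sets of libraries. It was 0.014 by DESeq2, 0.0357 by voom with quality weights and 0.0164 by edgeR on the libraries of these groups alone, a fit that called 28 of all 15597 genes tested. The adjusted p at 24 h ranged from 0.014 to 0.507 over 22 alternatives. At 1 wk that range was 0.133 to 1, at 2 wk 0.165 to 0.831, and over all exercised libraries 0.0287 to 0.905. Leaving out each library in turn left the log2 fold change between 0.80 and 1.005 at 24 h and between 0.56 and 0.79 at 1 wk. At 2 wk it was 0.44 without replicate 3 and 0.86 without replicate 4, and the unadjusted p stayed under 0.05 in each of these fits. In whole tissue, more RNA per cell and more cells that express the gene cannot be told apart.

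Gclm (chr3:122245557-122270732, plus strand), the modifier subunit that pairs with Gclc, had groups that overlapped throughout. It ranged from 349.7 to 409 CPM in sedentary libraries, 374 to 442 CPM at 24 h, 392 to 425 CPM at 1 wk and 362 to 443 CPM at 2 wk, with log2 fold changes of 0.09 ± 0.09, 0.07 ± 0.09 and 0.04 ± 0.09. The ratio of Gclc to Gclm CPM, a measure chosen after the values were seen, was 0.58, 0.55, 0.76 and 0.68 in sedentary libraries and 1.29, 1.05, 1.06 and 1.13 at 24 h. It was 0.70, 1.10, 1.00 and 1.05 at 1 wk and 0.90, 1.05, 1.38 and 0.62 at 2 wk. The ratio was above every sedentary value in all libraries at 24 h and overlapped the sedentary values at 1 wk and 2 wk. No test was run on it, since it was picked for this difference.

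The other genes of the role lay within the spread of their groups. Log2 fold changes at 24 h, 1 wk and 2 wk were 0.03, 0.05 and -0.10 for Gss, which adds glycine in the last step of synthesis. For Gsr, which reduces oxidised glutathione, they were -0.002, -0.02 and -0.003. For Ggt1, the brush border transferase that takes glutathione apart, they were -0.03, 0.03 and 0.05, with levels from 1756 to 2571 CPM over the 16 libraries.

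**Figure D3:**
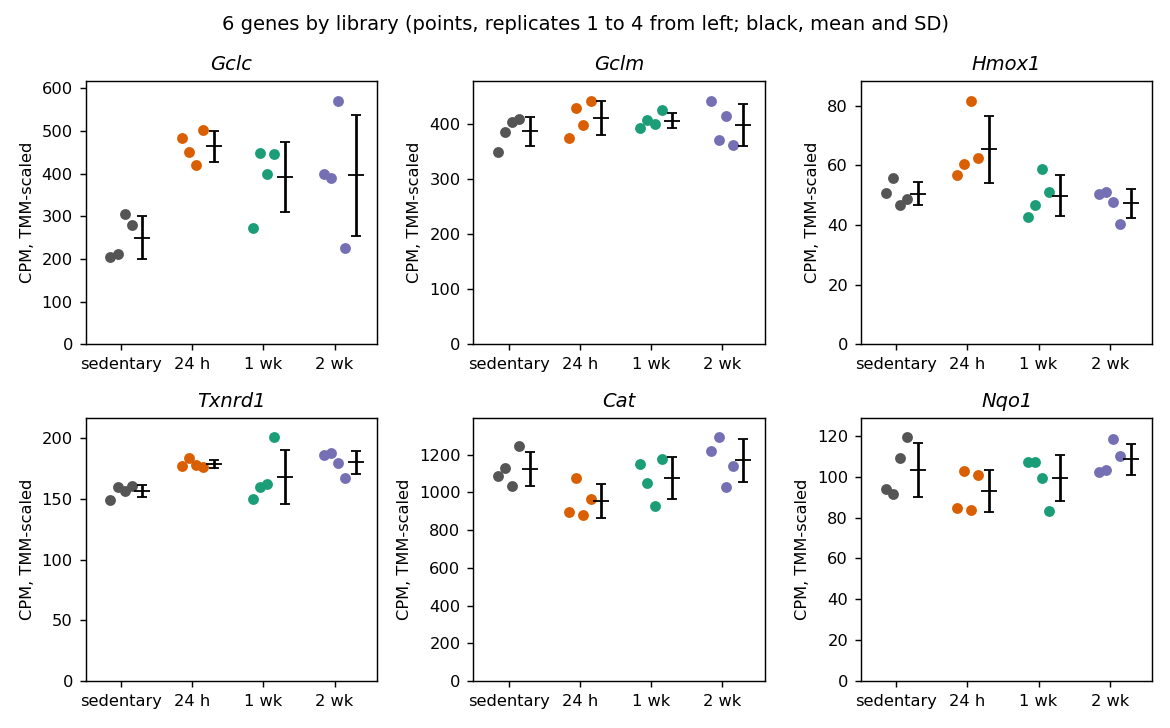
TMM-scaled CPM of 6 genes in each library, replicates 1 to 4 from left to right in each group, with the mean and SD in black and axes that start at 0. Gclc libraries at 24 h (419.7 to 501 CPM) sit above the sedentary ones (204 to 305 CPM) while Gclm overlaps throughout, and Hmox1, Txnrd1 and Cat show smaller shifts at 24 h.

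None of the 3 glutathione peroxidases was at an unadjusted p under 0.05 at any duration. Gpx3 (chr11:54902453-54910377, plus strand) was at 32399, 33069, 28571 and 28906 CPM in sedentary libraries and 31120, 28666, 35962 and 28851 CPM at 24 h. It was at 34525, 34942, 35240 and 29225 CPM at 1 wk and 38110, 34588, 30666 and 31303 CPM at 2 wk. Its groups overlapped, with log2 fold changes of 0.02 ± 0.10, 0.12 ± 0.10 and 0.13 ± 0.10. Gpx1 had log2 fold changes of 0.14, 0.15 and 0.06 (SE 0.13 each), and its 2 highest levels, 4690 CPM in 24 h replicate 3 and 4781 CPM in 1 wk replicate 3, came from libraries in which short transcripts were high. Gpx4 was at 1093, 1089, 1318 and 1192 CPM in sedentary libraries, 902, 1113, 1235 and 1272 CPM at 24 h, 1086, 1441, 1632 and 832 CPM at 1 wk and 993, 798, 1291 and 1075 CPM at 2 wk. It was spread widely within every exercised group, and the log2 fold changes of -0.05, 0.09 and -0.17 were no larger than their standard errors of about 0.17.

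Among the 14 tested cytosolic glutathione transferases, 1 was at an unadjusted p under 0.05 at 24 h, and none at 1 wk or 2 wk. Gsto1, of the omega class, was at 44.3, 41.1, 40.1 and 39.4 CPM in sedentary libraries, 64.7, 34.7, 75.0 and 41.8 CPM at 24 h, 49.8, 53.8, 51.3 and 40.2 CPM at 1 wk and 54.0, 43.7, 43.0 and 49.4 CPM at 2 wk. The 24 h group divided into 2 high and 2 low libraries, replicates 1 and 3 being high. The log2 fold change at 24 h was 0.39 ± 0.17 (adjusted p = 0.524 by edgeR, 0.182 to 0.944 over 22 alternatives). The unadjusted p was no longer under 0.05 without 24 h replicate 1 (log2 fold change 0.29) or 3 (0.19) and without sedentary replicate 2 (0.39), 3 (0.38) or 4 (0.37). Gsta4, which conjugates the lipid aldehyde 4-hydroxynonenal, had the same division at 24 h, with 50.6, 26.4, 50.6 and 31.2 CPM, and a log2 fold change of 0.36 ± 0.19 (adjusted p = 0.600 by edgeR, 0.328 to 0.955). Gsta2 divided likewise, at 224, 128, 232 and 128 CPM at 24 h against 165, 145, 158 and 169 CPM in sedentary libraries. Its levels were 218, 239, 197 and 134 CPM at 1 wk and 207, 157, 187 and 218 CPM at 2 wk, with log2 fold changes of 0.16, 0.31 and 0.27 and standard errors of 0.19. Replicates 1 and 3 of the 24 h group also had the 2 highest median marker levels of the group for 5 lists. On the log2 scale these medians lay 0.56 and 0.79 above the sedentary mean for fibroblast markers, 0.60 and 0.31 for podocyte, 0.235 and 0.72 for macrophage, 0.09 and 0.19 for endothelial and 0.59 and 0.71 for red cell markers. The same replicates had the 2 lowest medians of the group for S3 proximal tubule and collecting duct markers. These were -0.17 and -0.085 for S3, against 0.126 and 0.10 in replicates 2 and 4. For collecting duct they were -0.08 and -0.09, against 0.02 and 0.285. S1 and S2 proximal tubule and thick ascending limb markers did not divide the group in this way. The part of these marker levels in those of Gsto1, Gsta2 and Gsta4 was not tested.

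Gstz1, which also acts in tyrosine breakdown, tended the other way at 24 h without passing the unadjusted threshold. It was at 509, 530.1, 572 and 541 CPM in sedentary libraries, 395, 524, 444 and 515 CPM at 24 h, 531, 544, 546 and 468 CPM at 1 wk and 515, 476, 563 and 503 CPM at 2 wk, with a log2 fold change at 24 h of -0.20 ± 0.09 (adjusted p = 0.565 by edgeR, 0.353 to 0.941 over the alternatives). The theta class gene Gstt1 was at 175, 171, 163 and 152 CPM in sedentary libraries, 147, 143, 166 and 149.8 CPM at 24 h, 182, 184, 164 and 134 CPM at 1 wk and 184, 170.4, 162 and 168 CPM at 2 wk. Its groups overlapped throughout.

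Gstt3 was at 58.7, 58.4, 53.0 and 49.7 CPM in sedentary libraries, 55.9, 50.1, 55.5 and 58.3 CPM at 24 h, 64.4, 60.3, 57.7 and 55.5 CPM at 1 wk and 64.9, 57.8, 55.5 and 62.4 CPM at 2 wk. Gstp1, of the pi class, was at 136, 130.2, 121 and 121 CPM in sedentary libraries, 122, 139, 123 and 146 CPM at 24 h, 159, 128, 151 and 122 CPM at 1 wk and 150.5, 131, 135 and 127 CPM at 2 wk. Neither had a log2 fold change above 0.13 at any duration. Gstm5, of the mu class, was at 181, 207, 193 and 203 CPM in sedentary libraries, 179, 188, 201 and 183 CPM at 24 h, 219.8, 226, 235 and 149.8 CPM at 1 wk and 191, 176, 186 and 193 CPM at 2 wk. At 1 wk, 3 of its 4 libraries were above every sedentary one, and replicate 4 was the lowest of all 16. The remaining tested genes of the class, Gsta3, Gstm1, Gstm2, Gstm4, Gstm6 and Gstt2, had log2 fold changes between -0.23 (Gstm6 at 24 h) and 0.16 (Gstm1 at 2 wk), none at an unadjusted p under 0.05. The mitochondrial and membrane transferases Gstk1, Mgst1 and Mgst3 lay between -0.03 (Gstk1 at 24 h) and 0.15 (Mgst3 at 1 wk).

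Thioredoxin and the peroxiredoxins had no member at an unadjusted p under 0.05 against sedentary libraries. Prdx1, a cytosolic peroxiredoxin, was at 1371, 1449, 1508 and 1453 CPM in sedentary libraries and 1256, 1236, 1396 and 1394 CPM at 24 h. It was at 1273, 1558, 1643 and 1092 CPM at 1 wk and 1318, 1105, 1345 and 1211 CPM at 2 wk. All libraries at 2 wk were below the lowest sedentary one, with a log2 fold change of -0.22 ± 0.11 (adjusted p = 0.697 by edgeR, 0.377 to 1 over the alternatives), and -0.16 without 2 wk replicate 2. Prdx3, the mitochondrial form, was at 206, 211, 219 and 207 CPM in sedentary libraries, 224, 218, 253 and 231 CPM at 24 h, 221, 242, 254 and 213 CPM at 1 wk and 230.5, 195, 235 and 222 CPM at 2 wk. Of its 12 exercised libraries, 9 were above the highest sedentary one, with log2 fold changes of 0.14 ± 0.08, 0.14 ± 0.08 and 0.07 ± 0.08.

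Prdx5 was at 2427, 2589, 2547 and 2466 CPM in sedentary libraries, 2118, 2395, 2533 and 2651 CPM at 24 h, 2680.1, 2741, 3099 and 1914 CPM at 1 wk and 2445, 1960.0, 2429 and 2348 CPM at 2 wk. Prdx4, the form of the endoplasmic reticulum, was at 24.9, 27.1, 26.0 and 23.7 CPM in sedentary libraries, 23.8, 22.01, 27.8 and 21.2 CPM at 24 h, 27.5, 28.3, 31.0 and 20.7 CPM at 1 wk and 29.6, 22.4, 24.9 and 23.5 CPM at 2 wk. For both genes the 1 wk group held both the highest and the lowest of the 16 libraries. Txn1, Prdx2 and Prdx6 had log2 fold changes between -0.08 (Txn1 at 2 wk) and 0.09 (Prdx2 at 1 wk).

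Of the superoxide dismutases and catalase, Cat had a lower average at 24 h and Sod3 a higher one at 2 wk. Cat (chr2:103453849-103485160, minus strand), the peroxisomal enzyme that breaks down hydrogen peroxide, was at 1086, 1131, 1032 and 1245 CPM in sedentary libraries and 897, 1075, 882 and 963 CPM at 24 h. It was at 1149.5, 1047, 928 and 1178 CPM at 1 wk and 1219, 1293, 1030.25 and 1138 CPM at 2 wk. At 24 h, 3 of 4 libraries were below the lowest sedentary one, with a log2 fold change of -0.235 ± 0.10 (adjusted p = 0.506 by edgeR, 0.206 to 0.934 over 22 alternatives). Leaving out each library in turn left it between -0.30 and -0.18, and the unadjusted p was no longer under 0.05 without sedentary replicate 2 (-0.23) or 4 (-0.18) or 24 h replicate 1 (-0.21) or 3 (-0.20).

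Sod3, the extracellular dismutase, was at 836, 890.05, 755 and 903 CPM in sedentary libraries, 862, 920.1, 833 and 954 CPM at 24 h, 934, 854, 921 and 928 CPM at 1 wk and 1095, 945, 859 and 972 CPM at 2 wk. The groups overlapped at 2 wk, with a log2 fold change of 0.19 ± 0.09 (adjusted p = 0.671 by edgeR, 0.301 to 1 over the alternatives). The unadjusted p was no longer under 0.05 without 2 wk replicate 1 (0.13) or 4 (0.19) and without sedentary replicate 1 (0.19) or 3 (0.14). Sod2, the manganese enzyme of mitochondria, was at 409, 435, 388 and 416 CPM in sedentary libraries, 440.2, 411, 449 and 429 CPM at 24 h, 451, 438, 443 and 394 CPM at 1 wk and 453, 399, 399 and 419 CPM at 2 wk. It was the steadiest of the 42 genes over the 16 libraries, with a coefficient of variation of 5.14%. Sod1, the cytosolic copper and zinc enzyme, had log2 fold changes of -0.02, 0.05 and -0.09.

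The second question was whether the durations differ from each other, in comparisons that share libraries with those above. Hmox1 was lower on average at 1 wk and 2 wk than at 24 h, and Cat was higher at 2 wk than at 24 h, each at an unadjusted p under 0.05. For Hmox1 the log2 difference was -0.39 ± 0.12 from 24 h to 1 wk (adjusted p = 0.355 by edgeR, 0.151 to 0.999 over 22 alternatives) and -0.47 ± 0.12 from 24 h to 2 wk (adjusted p = 0.298, 0.0659 to 0.954). All 2 wk libraries, at 40.2 to 50.9 CPM, were below all 24 h libraries, at 56.9 to 81.7 CPM, and without 24 h replicate 3 the differences were -0.27 and -0.34. Macrophage markers were lower in the same comparisons, 5 of 6 at 1 wk and 4 of 6 at 2 wk at an unadjusted p under 0.05, with median log2 differences of -0.63 and -0.61 (-0.39 and -0.39 without 24 h replicate 3). Their summed level was 108 to 123 CPM in sedentary libraries, 108 to 138 CPM at 24 h, 88.9 to 112 CPM at 1 wk and 89.5 to 118 CPM at 2 wk, with no marker at 0. Of all genes, 4.72% were lower at 1 wk and 4.32% at 2 wk at that threshold. Other lists were lower too, with 5 of 5 endothelial, 4 of 5 fibroblast, 6 of 10 heat shock and 1 of 8 injury genes at 1 wk. At 2 wk these were 1 of 5, 3 of 5, 5 of 10 and 4 of 8. Higher at 2 wk were 3 of 6 red cell, 2 of 5 collecting duct and 2 of 6 S1 and S2 proximal tubule markers. Without 24 h replicate 3, 2 of 6 macrophage markers were lower at 1 wk and 2 of 6 at 2 wk. Then 1 of 5 endothelial, 4 of 5 fibroblast, 3 of 10 heat shock and 1 of 8 injury genes were lower at 1 wk. At 2 wk these were 0 of 5, 3 of 5, 0 of 10 and 2 of 8. The part of macrophages or of the other lists in the difference of Hmox1 was not tested. For Cat the log2 difference from 24 h to 2 wk was 0.29 ± 0.10 (adjusted p = 0.403 by edgeR, 0.191 to 0.957).

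With all 16 libraries the members' counts between durations were not above those of all genes. Between 24 h and 1 wk, 1 of 42 members was at an unadjusted p under 0.05 (2.38%, all genes 7.15%), and none had separate groups (all genes 2.92%). Between 24 h and 2 wk, 2 were (4.76% of 42, all genes 9.61%), of which Hmox1 alone had separate groups (2.38% of 42, all genes 3.26%). Between 1 wk and 2 wk there were none (all genes 4.58%). The test of any difference among the 4 groups had 3 members at an unadjusted p under 0.05 (7.14% of 42, all genes 8.73%). Without 1 wk replicate 4 the members' shares were above those of all genes, with 9 of 42 between 24 h and 1 wk (21.4%, all genes 9.31%), 9 between 1 wk and 2 wk (21.4%, all genes 17.1%) and 8 among the 4 groups (19%, all genes 14.2%). The count of members at an adjusted p under 0.05 was 0 by edgeR and voom in each of these, beside 0.0124% of all genes by edgeR between 24 h and 2 wk and among the 4 groups. Voom called 0.211% of all genes among the 4 groups, 0.0248% between 24 h and 2 wk, 0.0062% between 1 wk and 2 wk and none between 24 h and 1 wk. By DESeq2 the members' count was 0 between 24 h and 1 wk (all genes 0.366%), 24 h and 2 wk (0.242%) and 1 wk and 2 wk (0.0248%). It was 1 among the 4 groups (all genes 1.01%), which was Gclc (adjusted p = 0.0396, with 0.0396 to 0.629 over 21 alternatives).

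Much of the variation in these genes was between libraries of the same group. The median coefficient of variation within groups was 10.84% for the 42 members and 10.85% for all 8601 genes of at least 10 CPM. 1 wk replicate 4 was the lowest of the 16 for 14 members (33.3%, beside 9.58% of all genes of at least 10 CPM), and 1 wk replicate 3 the highest for 13 (31%, beside 14.9%). 2 wk replicate 1 was the highest for another 13 (31%, beside 9.58%). The median over members of the difference from the sedentary mean, on the log2 scale, was 0.19 in 1 wk replicate 3, -0.175 in 1 wk replicate 4 and 0.15 in 2 wk replicate 1, and lay between -0.05 and 0.11 in the others.

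**Figure D4:**
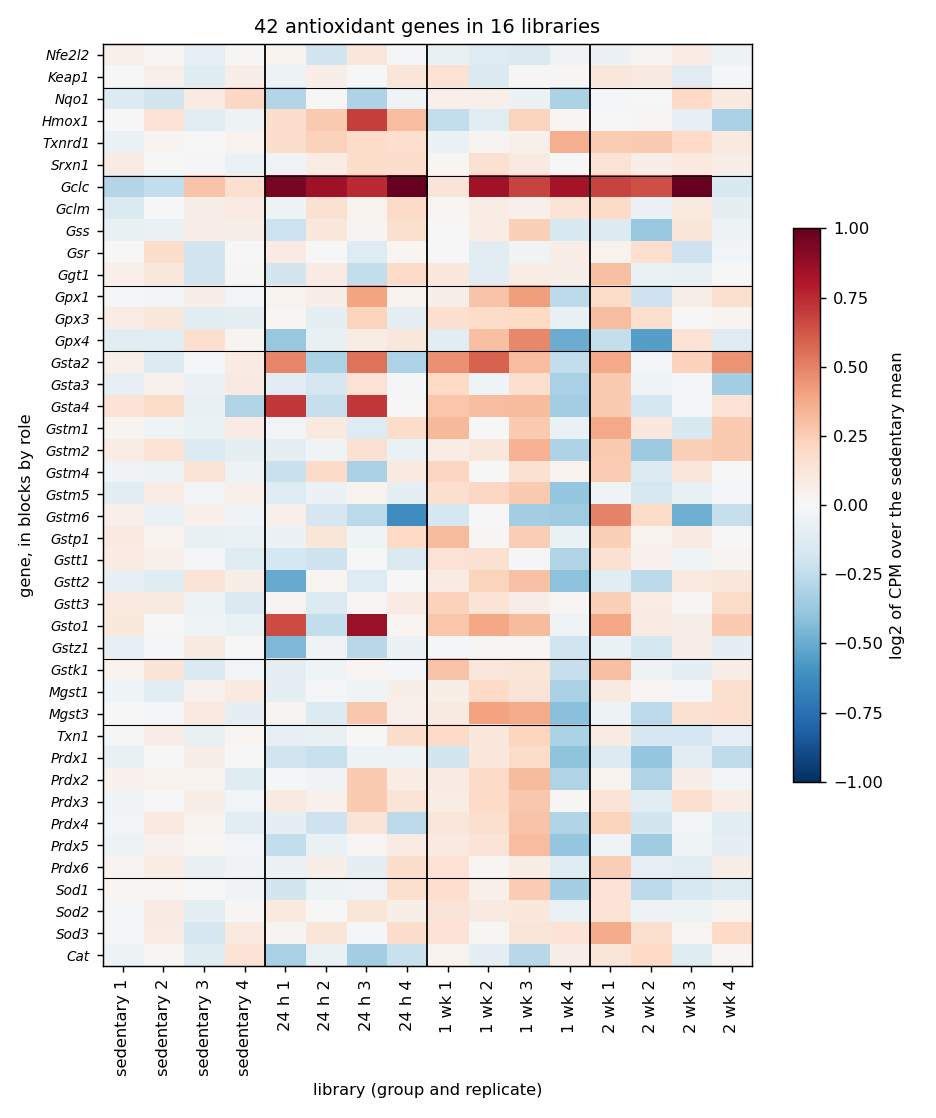
Log2 of CPM over the sedentary mean for 42 genes (in blocks by role) in 16 libraries, with the colour scale ending at -1 and 1. The row of Gclc is strongly red in 10 of 12 exercised libraries, and the column of 1 wk replicate 4 is blue for most transferases and peroxiredoxins while that of 1 wk replicate 3 is red.

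Transcript length moved with the members' medians in 1 wk replicates 3 and 4. Of the 30 members at 100 CPM or more, 13 have under 2 kb of exon. Among all genes at that level, those under 2 kb had a median log2 difference from the sedentary mean of 0.305 in 1 wk replicate 3 and -0.24 in 1 wk replicate 4, while genes over 4 kb were at -0.09 and 0.12. 2 wk replicate 2 had the same tilt as 1 wk replicate 4, with -0.24 for short and 0.12 for long genes, although its members' median was -0.045. 2 wk replicate 1 had no such tilt, with 0.12 for short and 0.08 for long genes. The part of transcript length in the levels of the members was not tested. Without 1 wk replicate 4, 7 members were at an unadjusted p under 0.05 in the comparison of 1 wk with sedentary (16.7% of 42, beside 11% of all genes), all with positive log2 fold changes. They were Gstm5, Prdx3, Mgst3, Gclc, Gsta2, Gstp1 and Gpx1, and 12 members then had separate groups (28.6% of 42, beside 14.7% of all genes).

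**Figure D5:**
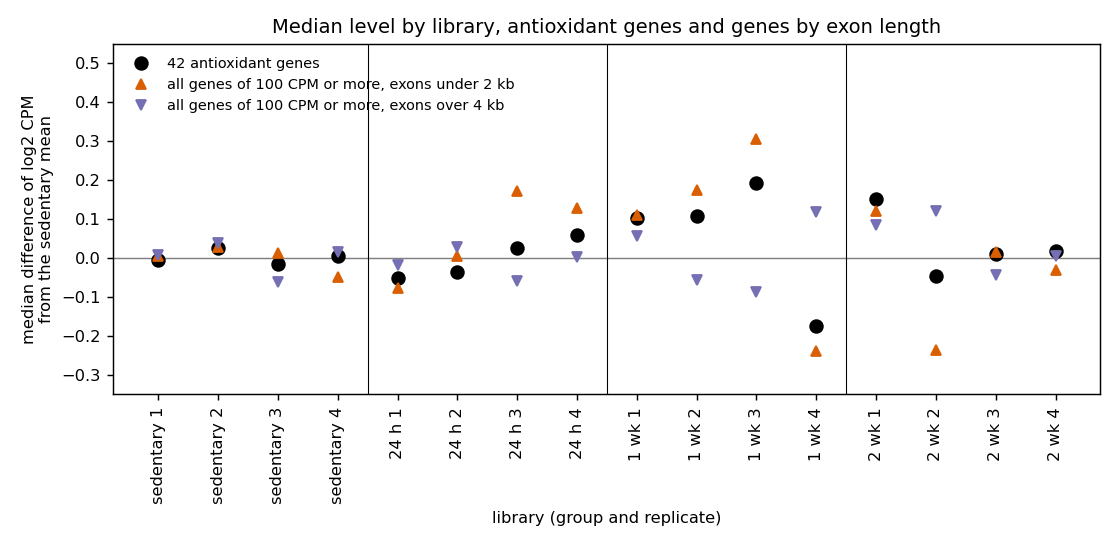
Median difference of log2 CPM from the sedentary mean in each library, for the 42 antioxidant genes (circles) and for all genes of at least 100 CPM with exons under 2 kb (upward triangles) or over 4 kb (downward triangles). The circles follow the short genes in 1 wk replicate 3 (0.19) and 1 wk replicate 4 (-0.175).

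Beyond the 44 members, 101 other genes of the same systems were examined in 7 lists, of which 97 were tested: further regulators of NRF2, glutathione supply, NADPH supply, other detoxification enzymes, other transferases and peroxidases, thioredoxin and glutaredoxin genes, and selenium supply. The count at an adjusted p under 0.05 against sedentary libraries was 0 by edgeR, DESeq2 and voom. At an unadjusted p under 0.05, 2 were higher and 5 lower at 24 h, 1 higher and 2 lower at 1 wk, and 1 higher and 2 lower at 2 wk, of 97. These are 7.22%, 3.09% and 3.09% of the 97, each below the 8.92%, 6.05% and 7.26% of all genes. Their median log2 fold changes were -0.01, 0.01 and -0.02.

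The 4 genes of smallest p at 24 h were Ptgr1, a reductase of prostaglandins and lipid aldehydes, at -0.33 ± 0.12 on the log2 scale (adjusted p = 0.391 by edgeR, 0.136 to 0.865 over the alternatives, groups separate), Sesn2, a stress-induced sestrin, at -0.38 ± 0.16, Ftl1, the ferritin light chain, at 0.28 ± 0.12 and Gpx6, a peroxidase with no selenocysteine in the mouse, at -0.28 ± 0.12. At 1 wk they were Txnip, which binds and restrains thioredoxin, at -0.25 ± 0.10 (adjusted p = 0.762 by edgeR, 0.175 to 1, groups separate), Sesn2 at -0.38 ± 0.16, the selenoprotein Msrb1, which repairs oxidised methionine, at 0.31 ± 0.13 (groups separate) and Ggt5 at -0.33 ± 0.19 (adjusted p = 0.901, 0.312 to 1).

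At 2 wk the smallest p of the wider lists belonged to Selenop, which encodes the plasma protein that carries selenium and has 10 in-frame TGA codons in its coding sequence. It was at 2607, 2813, 3317 and 2838 CPM in sedentary libraries and 2063, 2315, 2555 and 1758 CPM at 2 wk. All 2 wk libraries were below every sedentary one, with a log2 fold change of -0.41 ± 0.11 (adjusted p = 0.357 by edgeR, 0.0719 to 0.894 over the alternatives). The selenocysteine-bearing members had log2 fold changes at 2 wk of 0.06 for Gpx1, 0.13 for Gpx3, -0.17 for Gpx4 and 0.20 for Txnrd1. The other named genes at 2 wk were Aldh1a1, a retinaldehyde dehydrogenase, at 0.65 ± 0.21 (adjusted p = 0.429 by edgeR, 0.117 to 0.903), Akr1b3, aldose reductase, at -0.28 ± 0.12 and Ggt6 at 0.26 ± 0.13 (adjusted p = 0.685, 0.404 to 1). Over all exercised libraries the 4 were Aldh1a1 at 0.48 ± 0.18, Ptgr1 at -0.25 ± 0.09, Sesn2 at -0.32 ± 0.13 and Msrb1 at 0.26 ± 0.11.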

How the data were processed

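Polyadenylated RNA of kidney cortex was made into libraries with a kit that marks strand, per the labels' protocols. The authors deposited raw counts per gene, made with HTSeq 0.10.0 on GRCm38 (mm10) after a read check with FastQC 0.10.1, per the submitters' processing notes. Not given in the sources used here are the aligner, the release of the annotation and whether strand was used in counting. The table held 24 columns of counts, of which 16 were joined to samples by name and 8 were not used. GENCODE M21 named 52133 of the gene IDs (94.1%), which hold 99.4% of the counts.

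Genes passing filterByExpr (16126) were tested in edgeR 4.0.16 (R 4.3.3) with TMM scaling and the robust quasi-likelihood F-test, all 16 libraries in 1 fit on group, with Benjamini-Hochberg adjustment over all genes tested and a threshold of 0.05. Values after ± are SD for levels and SE for log2 fold changes. CPM values are TMM-scaled, and levels per kb were divided by the exon length in GENCODE M21. Alternatives were DESeq2 1.42.0, its size factors, voom with quality weights in limma 3.58.1, no filter on low counts, the groups compared alone, a replicate block, and leaving out each library in turn. No pair of libraries in a group agreed within sampling noise by a chi-square statistic on genes of 20 or more counts. The fit was tested on simulated counts.

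The members and lists were chosen with earlier results of these data known. Values in every library are given for Nfe2l2, Keap1, Nqo1, Hmox1, Gclc, Txnrd1, Srxn1, Gpx3, Cat and Sod2, for the 6 members of smallest p in each comparison with sedentary mice and in the test of 4 groups, and for the 4 of smallest p in each other comparison. Of the wider lists the 4 genes of smallest p in each comparison with sedentary mice are named. Gclm, Gpx1, Gsta4, further values of Selenop and the overlapping genes were added after values were seen.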

Additional observations from a re-analysis of the deposited data

Results flagged for a closer look

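In 8 of 168 sets of 4 libraries (a member in a group, 4.76%), the highest or lowest library lay far from the other 3, where chance gives about 1 in 20. Gpx1 was at 3740 CPM in sedentary replicate 3, above 3515 to 3531 CPM in the others, and at 4690 CPM in 24 h replicate 3, above 3669 to 3742 CPM. In 1 wk replicate 4, Gpx3 was at 29200 CPM and Gsta4 at 24.4 CPM, both below the others of the group. Gstm2 was low at 33.1 CPM in 2 wk replicate 2. In sedentary libraries, Gstm4 was high at 21.2 CPM in replicate 3 and Prdx2 low at 262 CPM in replicate 4. Sod3 was low at 854 CPM in 1 wk replicate 2.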

How the results depend on the processing

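No direction of a member at an unadjusted p under 0.05 reversed under any alternative run. The number of members at an adjusted p under 0.05, 0 by edgeR, was 1 (Gclc) by DESeq2 at 24 h, over all exercised libraries and in the test of 4 groups, and 1 by voom at 24 h and over all exercised libraries. It was also 1 with the groups compared alone at 24 h, where 28 of all 15597 genes tested passed. It was 0 (lowest 0, highest 0) in every comparison when a library was left out. Members at an unadjusted p under 0.05 were 3 at 24 h with no filter on low counts (6.82%, all genes 6.28%). With the groups compared alone they were 2 at 1 wk (4.76%, all genes 7.1%) and 5 at 2 wk (11.9%, all genes 8.54%). By voom they were 5 at 1 wk (11.9%, all genes 14.6%), 6 over all exercised libraries (14.3%, 14.6%), 7 between 24 h and 1 wk (16.7%, 9.69%), 4 between 24 h and 2 wk (9.52%, 11.1%), 5 between 1 wk and 2 wk (11.9%, 14.3%) and 9 in the test of 4 groups (21.4%, 21.4%). With each library left out in turn they ranged from 2 to 7 at 24 h (all genes 5.41% to 10.2%), 1 to 7 at 1 wk (3.7% to 11%), 1 to 5 at 2 wk (4.48% to 12.6%), 1 to 3 over all exercised libraries (4.72% to 9.18%), 1 to 9 between 24 h and 1 wk (4.06% to 9.62%), 2 to 5 between 24 h and 2 wk (4.99% to 14.4%), 0 to 9 between 1 wk and 2 wk (2.75% to 17.1%) and 2 to 8 in the test of 4 groups (6.21% to 14.2%). Members with separate groups then ranged from 3 to 6 at 24 h (all genes 7.13% to 13.9%), 0 to 12 at 1 wk (4.19% to 14.7%), 2 to 5 at 2 wk (4.85% to 15.2%), 0 to 6 between 24 h and 1 wk (2.84% to 8.23%), 1 to 4 between 24 h and 2 wk (3.19% to 13%) and 0 to 7 between 1 wk and 2 wk (1.6% to 9.34%). The ends of a range for members and for all genes can come from different fits. At 24 h the 7 members (16.7%) came without 24 h replicate 4, with all genes at 7.95%. At an unadjusted p under 0.05 the members' share was above that of all genes in 13 of 16 fits at 24 h. This held in 1 at 1 wk, 10 at 2 wk, 1 over all exercised libraries and 2 in the test of 4 groups. Between durations it held in 2 (24 h and 1 wk), 3 (24 h and 2 wk) and 1 (1 wk and 2 wk). The fits share most of their libraries, so that these counts of fits are not separate support. At 24 h the members' share was below that of all genes by voom (9.52%, all genes 14.2%) and with the groups compared alone (11.9%, all genes 12.8%). It was above by DESeq2 (11.9%, all genes 9.75%), with its size factors (11.9%, 9.05%), with the replicate block (11.9%, 9.87%) and with no filter. The members' highest counts involving 1 wk came without 1 wk replicate 4, and the causes of these shifts were not tested. These counts of separate groups, the medians and the marker counts without a library were added as alternatives after the data were seen.

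Replicate numbers did not pair the samples throughout. Over 24 pairs of libraries with the same number, deviations from the group means correlated at -0.239 to 0.375. The 8 pairs over 0.1 all had number 1 (0.109 to 0.145) or number 3 (0.151 to 0.375). Pairs with different numbers reached 0.393. For 5 of 16 libraries the best partner had the same number. With the replicate block the members' counts at an unadjusted p under 0.05 stayed 5 at 24 h, 1 at 1 wk, 3 at 2 wk and 2 over all exercised libraries. Over all 16126 genes, the count at an adjusted p under 0.05 went from 0 to 5 at 2 wk against sedentary libraries. It went from 2 to 11 between 24 h and 2 wk and from 2 to 5 in the test of 4 groups. At this depth counting error is small beside the spread between libraries for all members but Gstm3, Mgst2 and Gstm6.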
